A study of Danio rerio with 18 samples.

Results

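Neuropeptides are short signalling peptides that neurons store in dense-core vesicles and release to act on G-protein-coupled receptors. Each is cut from a longer precursor protein by convertases in the secretory pathway, and some precursors give several active peptides. In the vertebrate brain many precursors are made in small, anatomically defined groups of neurons, above all in the hypothalamus, where they take part in feeding, reproduction, stress, sleep and water balance. Melanopsin (Opn4) is an opsin photoreceptor found outside the rods and cones, and in mammals the retinal cells that carry it send light information to the hypothalamus.

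The genes described here are precursors of neuropeptides, chosen by name from 44 gene symbols. Of these symbols, 32 matched an identifier directly and 6 matched through an older name (crhb, sst3, adcyap1a, penkb, ccka and uts1). The symbol galn denotes the same gene as gal, and no identifier was matched to sst1.1, cckb, cart1, cart2 or cart3 by name. Genes that the annotation names sst and CARTPT were counted among the other precursors at the end, and whether they include any of these was not settled. This left 38 of the 31624 genes in the table, and 37 of the 38 had at least 1 read somewhere in the series. The exception was pmch (ENSDARG00000073959), with 0 reads in all 18 libraries.

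Zebrafish of the Tubingen strain, about 1.5 years old, were either opn4 dko or wild-type. The opn4 dko fish carry frameshift deletions made with TALENs in both opn4.1 and opn4xb (opn4.1-/- and opn4xb-/-), and the wild-type fish are of the same strain and age. All fish had been entrained to a blue light-dark regime and were dissected in the light phase. Eyes, a posterior brain part and an anterior brain part were taken from each genotype, with 3 biological replicates per group, and each replicate is a pool of the same tissue from 3 fish. The posterior part holds the midbrain, the hindbrain and the rest of the forebrain, including the whole hypothalamus and the habenula. The anterior part is the remaining forebrain with the pineal, and the olfactory bulbs and pituitary were left out. In a homogenised pool, fewer cells of a type and less RNA per cell cannot be told apart.

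Library totals lay between 2186877 and 6946549 counts, and levels are given as counts per 1000000 counts of the library (CPM, with library sizes scaled by the TMM method). On this scale 3 reads correspond to 0.418 to 1.47 CPM. Wild-type eye replicate 3 stood apart, with the fewest counts and 14577 genes with a read, against 17604 to 20037 in the others. The dissection was checked against marker genes. Summed over 12 retinal genes, the eyes had 31416 to 49375 CPM and the brain parts 5.15 to 31.5 CPM. A list of 12 pituitary genes summed to 3.86, 17.2 and 73.7 CPM in wild-type posterior replicates 1, 2 and 3. In opn4 dko posterior pools it summed to 4.80 to 10.2 CPM, and in anterior libraries to 1.53 to 4.37 CPM. Wild-type posterior replicate 3 had 228 reads of prl2, and whether pituitary tissue was left in this pool was not tested. Midbrain and hindbrain transcription factors (18 genes) summed to 194 to 253 CPM in the posterior part and 1.31 to 6.82 CPM in the anterior part, while 18 telencephalic factors summed to 212 to 279 CPM in the posterior part and 1722 to 2095 CPM in the anterior part. A list of 16 hypothalamic transcription factors was read in both parts, at 168 to 228 CPM in the posterior and 155 to 189.8 CPM in the anterior libraries. The eyes had 78.2 to 155 CPM, so the sum of this list is not particular to the hypothalamus. In every library hmx2 and sim1b were at 0. Reads on opn4xb continued in opn4 dko eyes, at 9.43, 8.22 and 9.50 CPM (47, 33 and 34 reads). Wild-type eyes had 21.4, 15.4 and 28.0 CPM (66, 45 and 57 reads), without overlap. For opn4.1 the eyes had 341 to 515 CPM in opn4 dko and 351 to 600 CPM in wild-type. Since the lesions are frameshifts, such reads do not check the genotype. All eye libraries were sequenced in lane 7, so the eye and its lane cannot be told apart. Each brain lane held both genotypes. Lane 5 held only anterior pools and lane 4 only posterior pools (replicates 2 and 3), so for these pools brain part and lane cannot be told apart either.

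Most of the 37 genes with a read were brain transcripts. The highest mean level was in the posterior brain for 22 genes, in the anterior brain for 12 and in the eye for 3 (grp, nmu and prok2). In the eye, 10 genes had 0 reads in all 6 libraries: agrp, cart4, gal, gnrh3, hcrt, kiss2, nmba, npvf, oxt and pmchl. Only ghrh and prok2 had 0 reads in the posterior brain, and only agrp, npvf and prok2 in the anterior brain. Summed over the 6 libraries of a tissue, 0 reads allow a level of up to 0.146 CPM in the eye, 0.110 CPM in the posterior and 0.0942 CPM in the anterior brain, for counting error only. Reads were present in every library for 9 genes in the eye, 32 in the posterior and 23 in the anterior brain.

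**Figure D1:**
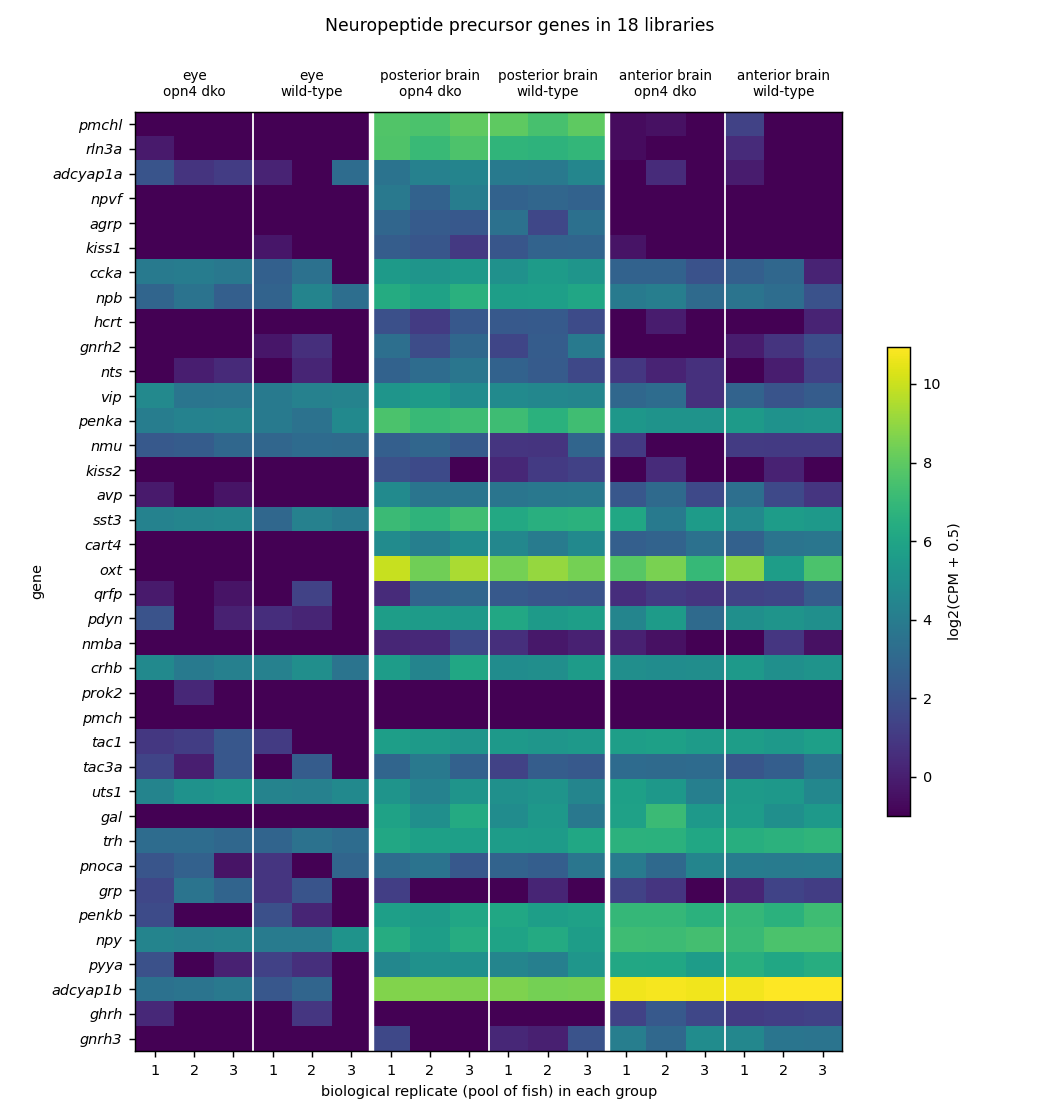
Level of each neuropeptide precursor gene (rows) in each of the 18 libraries (columns, replicates 1 to 3 of each group), as log2(CPM + 0.5) by colour, sorted by the ratio of posterior to anterior brain. Rows should be read across, not against each other, since CPM is not corrected for gene length: pmchl and rln3a are bright only in the 6 posterior libraries, adcyap1b is brightest in the anterior ones, and 10 genes are dark in every eye library.

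The first comparison asks how the precursors divide between the brain parts. Of the 38 genes, 33 passed the filter on low counts; ghrh, kiss2, nmba, pmch and prok2 did not. The edgeR quasi-likelihood test with Benjamini-Hochberg adjustment (FDR below 0.05) called 18 higher and 6 lower in the posterior brain, 24 of 33, where 28.6% of all 18630 genes tested were called (14.2% higher and 14.5% lower). A gene read in a single part can pass the filter only through that part, and such a gene had to differ: 11 of the 33 reached the filter's level in at least 3 libraries of the posterior part alone, and 1 of the anterior part alone. Among the 20 genes that reached it in both parts, 8 were higher and 5 lower in the posterior brain, with a median log2 fold change of 0.06. Over all 33 the median was 1.37, and over all genes tested it was 0.00. The libraries of the parts did not overlap for 15 genes with the posterior brain above (9.19% of all genes tested) and for 5 with it below (10.6%). In lane 6, which held replicate 1 of both parts and genotypes, 22 of the 24 called genes kept their direction in both genotypes, oxt and nmu being the exceptions. These libraries were also in the fit that called the genes, with 1 pool per part and genotype, so this was not an independent check.

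**Figure D2:**
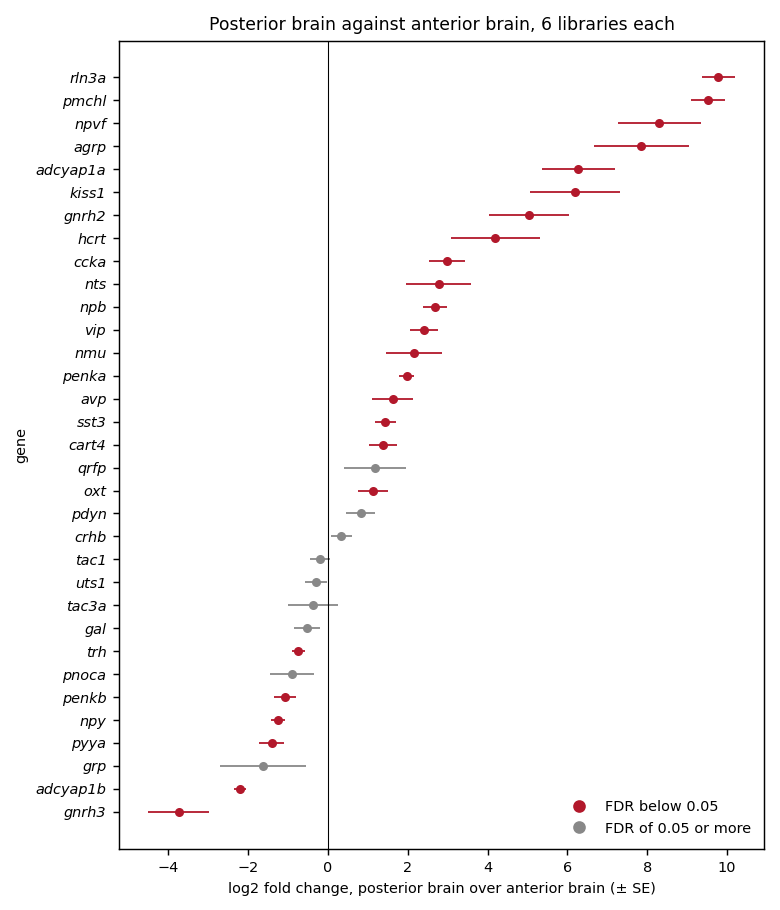
Log2 fold change of each tested gene, posterior over anterior brain, with its standard error from the edgeR fit, in 6 libraries per part; red points passed FDR 0.05. The values run from 9.78 for rln3a to -3.74 for gnrh3, and for agrp and npvf, which had 0 reads in the anterior brain, the plotted size depends on the prior count of the fit.

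pmchl, agrp, npvf, hcrt and cart4 were each higher in the posterior part. pmchl (ENSDARG00000076978), a melanin-concentrating hormone gene, had 179, 231 and 262 CPM (lowest, median and highest) in posterior brains, against 0, 0.0696 and 2.03 CPM in anterior brains. Its log2 fold change was 9.52 ± 0.42 (SE, n = 6 per part, FDR 4.58e-12), and the parts did not overlap. agrp (ENSDARG00000069089), whose peptide blocks melanocortin receptors and promotes feeding, had 2.43, 6.02 and 10.6 CPM in posterior brains and 0 reads in anterior brains, at least 11.2-fold higher against a floor of 3 counts in each library (FDR 1.27e-04). npvf (ENSDARG00000036227), the precursor of RFamide peptides that promote sleep in zebrafish larvae, had 6.18, 6.65 and 16.1 CPM in posterior brains and 0 reads in anterior brains, at least 15.8-fold higher (FDR 2.06e-05). Both genes were thus read in each posterior library and in no anterior one. hcrt (ENSDARG00000070932), the precursor of the wake-promoting hypocretins, reached 1.62, 3.81 and 4.68 CPM in posterior brains against 0, 0 and 0.657 CPM in anterior brains (log2 fold change 4.19 ± 1.12, FDR 0.00781). cart4 (ENSDARG00000070142), of the appetite-suppressing CART family, was less divided, at 15.4, 24.0 and 27.4 CPM in posterior and 5.57, 8.56 and 12.3 CPM in anterior brains (1.37 ± 0.34, FDR 0.00498).

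rln3a (ENSDARG00000070780) was higher in the posterior part by a fold change that did not differ from that of pmchl beyond their errors. It encodes a relaxin-3 peptide, which in mammals is made mostly in the nucleus incertus of the hindbrain. Its level was 105, 128 and 199 CPM in posterior brains, against 0, 0 and 0.903 CPM in anterior brains (9.78 ± 0.42, FDR 3.57e-13). It was read in every posterior library and in 2 of the 6 anterior ones. kiss1 (ENSDARG00000075829), a kisspeptin gene expressed in the zebrafish habenula, had 128 reads in posterior and 2 in anterior brains, a ratio of 74.7 with an exact counting interval of 20.3 to 624. gnrh2 (ENSDARG00000044754), the gonadotropin-releasing hormone of the midbrain tegmentum, was also higher in the posterior part, with 2.32, 6.27 and 14.3 CPM against 0, 0.226 and 3.06 CPM (5.04 ± 1.00, FDR 7.47e-04).

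The neurohypophysial hormones were read in both parts. oxt (ENSDARG00000042845), the oxytocin gene, had 323, 441 and 996 CPM in posterior brains and 49.7, 211 and 470 CPM in anterior brains. Its log2 fold change was 1.12 ± 0.38 (FDR 0.0319), the ranges overlapped, and within lane 6 the wild-type pools had the opposite sign (-0.41). avp (ENSDARG00000058567), the vasopressin (vasotocin) gene, had 11.8, 12.6 and 26.1 CPM against 1.31, 3.41 and 9.70 CPM (1.62 ± 0.51, FDR 0.0211), without overlap.

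The PACAP paralogues, whose peptides raise cyclic AMP in their target cells, divided in opposite directions. adcyap1b (ENSDARG00000027740) had 349, 396 and 416 CPM in posterior brains, against 1663, 1750.2 and 1979 CPM in anterior brains (-2.20 ± 0.16, FDR 3.18e-10). adcyap1a (ENSDARG00000004015) had 11.2, 16.4 and 22.2 CPM in posterior brains, against 0, 0 and 0.875 CPM in anterior brains (6.27 ± 0.92, FDR 1.24e-05). Neither pair of ranges overlapped. vip (ENSDARG00000078247), whose peptide belongs to the same family and couples clock neurons in mammals, went with adcyap1a, at 21.1, 26.5 and 44.7 CPM against 1.1, 5.79 and 8.75 CPM (2.42 ± 0.35, FDR 1.05e-05).

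Besides adcyap1b, 5 genes were lower in the posterior part. gnrh3 (ENSDARG00000056214), the gonadotropin-releasing hormone of the teleost terminal nerve and preoptic area, had 0, 0.646 and 3.65 CPM in posterior and 7.65, 14.5 and 27.5 CPM in anterior brains (-3.74 ± 0.76, FDR 8.68e-04). npy (ENSDARG00000036222), a widespread feeding-related peptide, had 49.8, 69.1 and 84.6 CPM in posterior and 137, 158 and 191 CPM in anterior brains (-1.26 ± 0.18, FDR 8.94e-06). Its relative pyya (ENSDARG00000053449) followed the same order, with 17.2, 26.9 and 38.8 CPM in posterior and 48.6, 70.9 and 91.9 CPM in anterior brains (-1.41 ± 0.31, FDR 0.00141; FDR 0.0613 in opn4 dko libraries alone). For these 3 genes the lowest anterior library was above the highest posterior one. trh (ENSDARG00000006868), the thyrotropin-releasing hormone gene, differed least of the called genes, with 46.6, 53.5 and 72.0 CPM in posterior and 69.2, 100.2 and 114 CPM in anterior brains (-0.74 ± 0.16, FDR 0.00117), and its ranges overlapped slightly.

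The enkephalin genes, precursors of opioid peptides, were a second pair of paralogues with opposite order. penka (ENSDARG00000004869) had 98.9, 151 and 191 CPM in posterior brains, against 33.9, 35.4 and 45.1 CPM in anterior brains (1.97 ± 0.18, FDR 1.08e-08). penkb (ENSDARG00000036045) had 46.6, 54.8 and 69.7 CPM in posterior brains, against 97.8, 125 and 152 CPM in anterior brains (-1.08 ± 0.27, FDR 0.00411; FDR 0.0662 in wild-type libraries alone). The other opioid precursors among the 38 were not called. pdyn, the dynorphin gene, had a log2 fold change of 0.82 ± 0.37 (FDR 0.0997) and pnoca, a nociceptin gene, one of -0.90 ± 0.55 (FDR 0.250). Outside the 38, its paralogue pnocb had 749 reads in posterior and 116 in anterior brains.

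Of the remaining called genes, ccka (2.99), nts (2.77), npb (2.68), nmu (2.15) and sst3 (1.43) all had positive log2 fold changes, with FDR between 3.11e-07 and 0.0233. They encode cholecystokinin, neurotensin, neuropeptide B, neuromedin U and a somatostatin. The genes that missed the threshold beside pdyn and pnoca were crhb, gal, tac1, tac3a, qrfp, uts1 and grp, with log2 fold changes between -1.63 (grp) and 1.17 (qrfp). They include the corticotropin-releasing factor relatives among the 38 (crhb at 0.33 ± 0.26 and uts1 at -0.30 ± 0.27). The tachykinin genes among the 38 were also of this group (tac1 at -0.20 ± 0.24 and tac3a at -0.37 ± 0.63). Outside the 38, crha had 22 reads in posterior and 0 in anterior brains, and tac3b had 32 and 222. ucn3 and tac4 were counted only among the other precursors at the end. ghrh (ENSDARG00000069481), the growth hormone-releasing hormone gene, was under the filter and had 1.58, 2.03 and 4.59 CPM in anterior brains but 0 reads in posterior brains, where it was at least 3.52-fold lower.

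The second comparison sets the eye against the mean of both brain parts, averaged on the log2 scale. Of 33 genes tested, 2 were higher (nmu and grp) and 23 lower in the eye, while 57.2% of all genes tested were called (29.7% higher and 27.5% lower). The genes had a median of -3.10 on the log2 scale. Setting the 8 of them with 0 eye reads to their bounds gave -2.76, and all genes tested had -0.00. Here too the filter matters, since 20 genes reached its level in brain alone and 1 in the eye alone (grp). Of the 12 that reached it in both, 1 (nmu) was higher and 8 were lower, with a median of -1.67. No gene had all its eye libraries above all brain libraries (12.6% of all genes did), and 12 had them all below (11.3%). Against single brain parts, 1 gene was higher and 29 lower in the eye than in the posterior brain, where 26.8% of all genes were higher and 27.2% lower (54% called), and 3 were higher and 18 lower than in the anterior brain, where 28.2% of all genes were higher and 26.2% lower (54.4% called).

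Several of the genes that were lowest in the eye relative to brain had no eye read at all. oxt had 0 reads in the eye, at least 571-fold lower than in the posterior and at least 255-fold lower than in the anterior brain. gal (ENSDARG00000091377), encoding the inhibitory peptide galanin, also had 0 eye reads, at least 44.1-fold lower than in the posterior and 63.5-fold lower than in the anterior brain. For cart4 the same bounds were 23.9-fold and 9.27-fold, and for pmchl the bound against the posterior brain was 238-fold. adcyap1b was read in the eye but at a low level, with 0, 8.64 and 13.7 CPM (lowest, median and highest; log2 fold change -6.91 ± 0.21, FDR 5.71e-18). penkb had 0, 0.343 and 3.24 CPM in the eye (-6.01 ± 0.39, FDR 5.14e-12). The paralogue penka was read in all eye libraries, at 11.0, 17.6 and 25.0 CPM (-2.07 ± 0.17).

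A smaller group was read in every eye library: npy, trh, crhb, sst3, vip, penka, uts1, nmu and npb. Several of these peptides are known from retinal amacrine cells in other vertebrates. Outside this group, adcyap1b, ccka and grp were read in 5 eye libraries, all except wild-type replicate 3, the one with the fewest counts. adcyap1a and pnoca were also read in 5 eye libraries, and wild-type replicate 3 was among these. ccka had 0, 11.9 and 15.7 CPM in the eye. vip had 12.0, 16.6 and 24.1 CPM in the eye, above the anterior brain (1.63 ± 0.35, FDR 3.67e-04) and below the posterior brain (-0.78 ± 0.33, FDR 0.0491). adcyap1a had 0, 1.46 and 8.84 CPM in the eye and was likewise above the anterior brain (3.60 ± 0.94, FDR 0.00238) and below the posterior brain (-2.68 ± 0.72, FDR 0.00321). Unlike those of vip, its eye and anterior libraries overlapped. It had 50 reads over all eye libraries, with the highest level in wild-type replicate 3. In neither the eye nor the anterior brain did it reach the filter's level. The differences of vip and adcyap1a from the mean of both parts were not called (0.42 and 0.46). uts1 had 18.8, 22.7 and 38.0 CPM in the eye, and its log2 fold change passed the threshold against neither the posterior (-0.24 ± 0.27) nor the anterior brain (-0.54 ± 0.27).

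nmu (ENSDARG00000043299), encoding neuromedin U, had 4.62, 7.34 and 8.56 CPM in the eye, 1.21, 5.19 and 7.27 CPM in posterior and 0, 1.53 and 1.58 CPM in anterior brains. Its log2 fold change against the mean of both was 1.73 ± 0.55 (FDR 0.00970), and it came from the anterior part (2.81 ± 0.71, FDR 0.00178) more than the posterior (0.65 ± 0.65, FDR 0.417). The call was lost when libraries were scaled to actb1 (0.87, FDR 0.181), and in wild-type (FDR 0.0599) or opn4 dko libraries alone (FDR 0.0805); without opn4 dko anterior brain replicate 1 the fold change was 2.82. grp (ENSDARG00000043074), encoding gastrin-releasing peptide, had 0, 3.09 and 11.7 CPM in the eye, 0, 0 and 1.80 CPM in posterior and 0, 1.53 and 2.14 CPM in anterior brains (2.18 ± 0.85, FDR 0.0332), with overlapping ranges. It reached the filter's level in eye libraries alone, so it was tested only through the tissue where it was higher. prok2, a secreted peptide linked to circadian output in mammals, had reads in a single opn4 dko eye library and in no other library.

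The spread between pools was described by the biological coefficient of variation (BCV) that edgeR fitted within each tissue, divided by the trend over all genes at the same level. The median ratio of the tested neuropeptide genes was 1.01 in the posterior brain (31 genes), 1.07 in the anterior brain (21 genes) and 0.890 in the eye (13 genes), beside 0.973, 0.970 and 0.935 over all genes. Above the trend were 17 of 31 genes in the posterior brain (54.8%, with 37.5% of all genes), 14 of 21 in the anterior brain (66.7%, with 36.5%) and 4 of 13 in the eye (30.8%, with 36.1%). By the SD over the mean of CPM, set against all genes without matching level, the eye's ratio was 1.18. The medians in opn4 dko and wild-type eyes were 0.279 and 0.445, beside 0.232 and 0.386 over all genes. By the same measure they were 0.333 and 0.217 in the anterior brain, beside 0.195 and 0.215. In the posterior brain they were 0.254 and 0.240, beside 0.219 and 0.223.

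oxt varied most for its level in both brain parts. In the anterior brain its pools had 233, 374 and 129 CPM in opn4 dko and 470, 49.7 and 188 CPM in wild-type (replicates 1, 2 and 3). The wild-type pools thus spanned 9.47-fold although each held at least 325 reads. The fitted BCV was 0.389, 3.04 times its trend of 0.128. avp, made in neighbouring cells of the same neurosecretory system, had 4.18, 8.31 and 2.64 CPM in opn4 dko and 9.70, 2.60 and 1.31 CPM in wild-type anterior brains. In both genes opn4 dko replicate 2 and wild-type replicate 1 were the highest of their groups. The 16 hypothalamic transcription factors summed to 155, 189.8 and 155 CPM in these opn4 dko pools and 173, 182 and 156 CPM in the wild-type pools, so that replicate 2 was the highest in either genotype. The part of this in the spread of oxt was not tested.

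Posterior oxt pools had 996, 323 and 683 CPM in opn4 dko, against 353, 529 and 347 CPM in wild-type, 1.70 times the trend. gal had a ratio of 1.43 in the posterior and 1.60 in the anterior brain. crhb (ENSDARG00000027657), the corticotropin-releasing hormone gene, had 48.1, 20.5 and 70.2 CPM in opn4 dko and 27.8, 29.3 and 47.2 CPM in wild-type posterior brains (ratio 1.37), but only 28.0 to 29.1 CPM in opn4 dko and 30.9 to 41.8 CPM in wild-type anterior brains (ratio 0.901). crhb was thus among the most variable of the genes in one part and the least variable in the other. sst3 (ENSDARG00000031649) was among the most variable in the anterior brain (ratio 1.62) and near the trend in the posterior brain (1.02).

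adcyap1b was among the least variable genes in both brain parts (0.892 in the posterior and 0.906 in the anterior), and its pools within a group differed by 1.04-fold to 1.15-fold. The others at the low end were hcrt (0.907) and tac1 (0.924) in the posterior brain and penka (0.911) in the anterior brain. In the eye pnoca (1.32), ccka (1.17) and grp (1.06) were at the high end and nmu (0.733), trh (0.736) and vip (0.845) at the low end. The 3 high eye genes had between 0 and 71 reads in a library. For genes with at least 10 reads in every library of a group, the median ratio of highest to lowest pool ran from 1.47 in opn4 dko eyes to 2.25 in wild-type eyes.

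**Figure D3:**
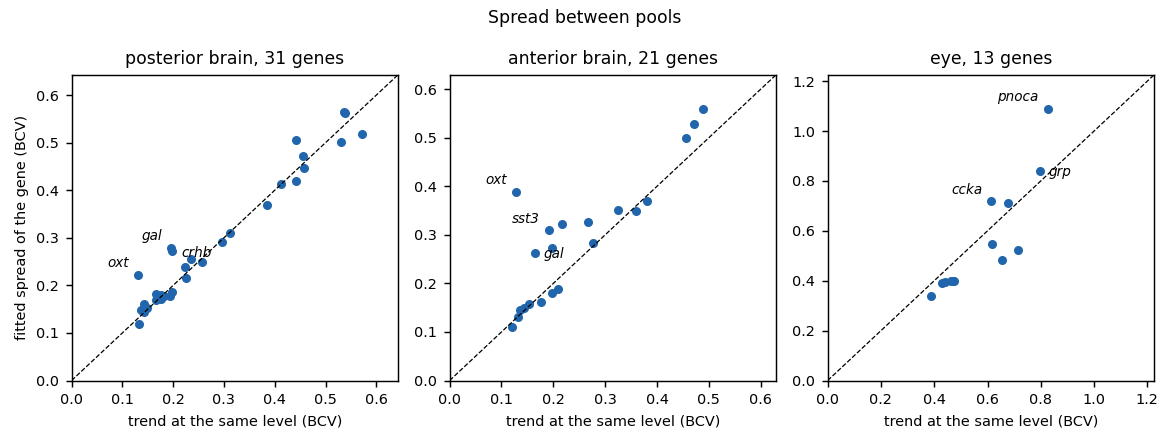
Fitted spread between pools (BCV, vertical axis) of each tested gene against the trend of all genes at the same level (horizontal axis), for 31, 21 and 13 genes in the posterior brain, anterior brain and eye; the dashed line marks equality. In the anterior brain oxt lies far above the line (0.389 against 0.128), and gal is above it in both brain parts.

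The third comparison asks whether loss of both melanopsins changed these transcripts. By the edgeR quasi-likelihood test no neuropeptide precursor passed FDR 0.05 in any tissue. In the posterior brain 0 of 31 genes were called (0.357% of all genes tested), in the anterior brain 0 of 21 (1.05%) and in the eye 0 of 13 (0.0254%). At an unadjusted p below 0.05 there were 6, 1 and 0 genes in these tissues, where 9.74%, 9.03% and 4.28% of all genes were. The edgeR exact test called 1, 0 and 0 of them and DESeq2 called 1, 0 and 0, the gene in the posterior brain being rln3a with both.

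**Figure D4:**
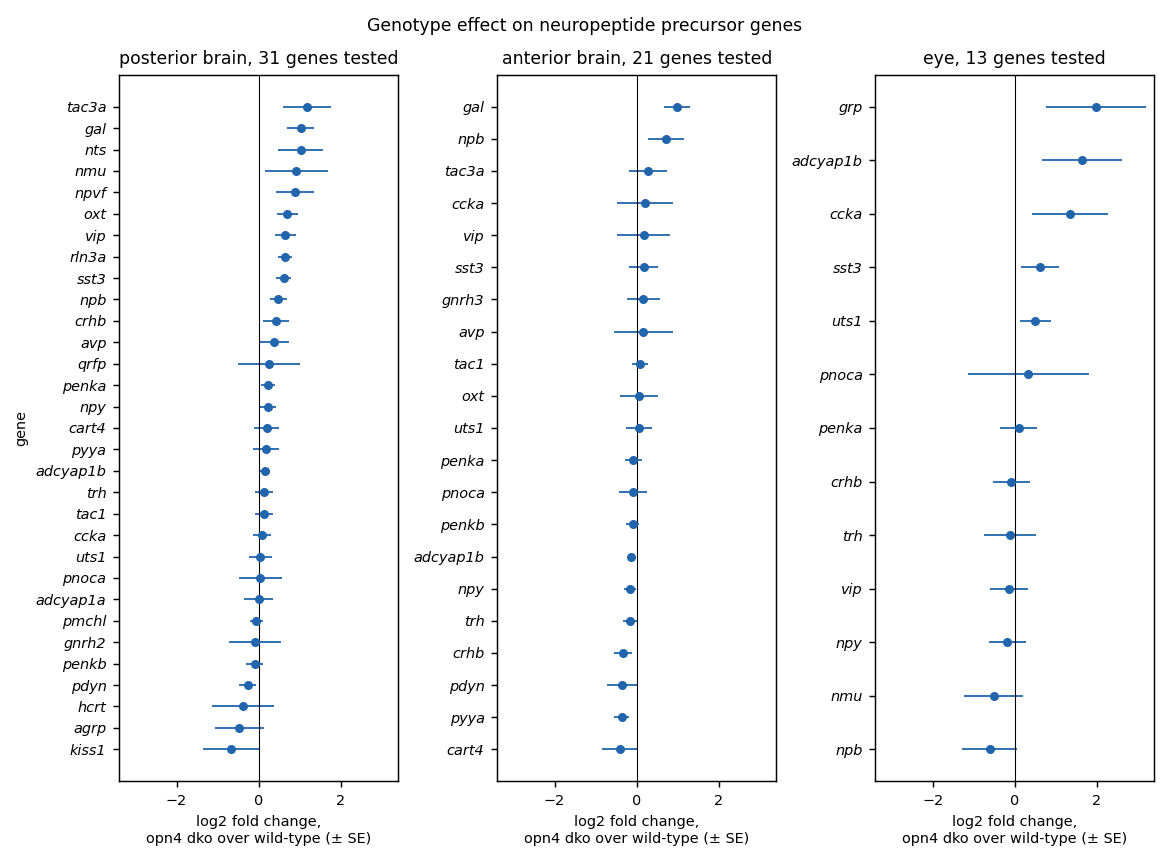
Log2 fold change of each tested gene, opn4 dko over wild-type, with its standard error, in the posterior brain (31 genes), the anterior brain (21 genes) and the eye (13 genes), 3 pools per genotype. In the posterior brain 23 of the 31 points lie right of 0, in the anterior brain 11 of 21 and in the eye 7 of 13; none passed FDR 0.05.

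In the posterior brain 23 of the 31 tested genes (74.2%) had a positive log2 fold change, against 50.6% of all genes, and the median was 0.19, against 0.01 over all genes. It was 0.18 over the 26 genes that reached the filter's level in both genotypes. The 6 genes with an unadjusted p below 0.05 were all higher in opn4 dko (rln3a, sst3, gal, oxt, vip and npb), 19.4% of those tested, where 4.79% of all genes were higher at this p. For 6 genes each opn4 dko pool was above each wild-type pool (sst3, vip, adcyap1b, tac3a, nts and rln3a, with 7.57% of all genes tested), and for none was each below (7.98%). Of these 6, tac3a reached the filter's level in opn4 dko pools alone, so it was tested only through the genotype where it was higher. Opn4 dko replicate 2 was unlike the other opn4 dko pools: relative to the wild-type mean the median log2 ratio of the 31 genes was 0.42, -0.02 and 0.33 in replicates 1, 2 and 3. The hypothalamic marker list moved the same way in the opn4 dko pools. Its summed level was 228, 176 and 210.2 CPM in opn4 dko replicates 1, 2 and 3, against 177, 168 and 172 CPM in wild-type. The median log2 ratio of the genes in wild-type was -0.02, -0.11 and 0.10, so there the highest pool was not that of the list. A list of 11 pineal genes summed to 14.0, 164 and 53.9 CPM in these opn4 dko pools, against 17.5, 9.87 and 18.6 CPM in wild-type. Opn4 dko replicate 2 thus had the highest sum of this list among the posterior pools. The eyes had 9647 to 13586 CPM, so the sum of this list is not particular to the pineal. The part of either list in the result was not tested. With libraries scaled to actb1 the median of all genes moved to -0.34 and that of the neuropeptide genes to -0.16, so that the median of the neuropeptide genes turned negative and remained above that of all genes.

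rln3a had 199, 135 and 195 CPM in opn4 dko posterior brains, against 114, 105 and 121 CPM in wild-type. Each opn4 dko pool was thus higher than each wild-type pool. The log2 fold change was 0.64 ± 0.16 (FDR 0.113). It passed the threshold by the exact test (FDR 0.0390), by DESeq2 (FDR 0.0288), with every gene that had a count kept (FDR 0.0107) and without opn4 dko replicate 2 (0.79, FDR 0.0272). It did not with libraries scaled to actb1 (0.28, FDR 0.529) or in the fit of all 18 libraries (0.64, FDR 0.796).

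sst3 had 143, 107 and 157 CPM in opn4 dko posterior brains, against 74.4, 93.6 and 100.1 CPM in wild-type (0.61 ± 0.17, FDR 0.173). Somatostatins inhibit hormone release and neuronal firing, and this gene is a paralogue of the main brain form. gal had 58.7, 30.4 and 78.7 CPM in opn4 dko, against 27.5, 40.9 and 13.2 CPM in wild-type (1.02 ± 0.33, FDR 0.262), and its pools overlapped. oxt, whose posterior values stand above, had a log2 fold change of 0.70 ± 0.25 (FDR 0.330), and 1.02 (FDR 0.00912) without opn4 dko replicate 2, the only opn4 dko pool below the wild-type mean. With every gene that had a count kept, gal (FDR 0.00372), sst3 (FDR 0.0391) and oxt (FDR 6.71e-05) passed the threshold. With libraries scaled to actb1 the log2 fold change was 0.23 for sst3 (FDR 0.642) and 0.64 for gal (FDR 0.321), and in the fit of all 18 libraries their FDR was 0.885 and 0.732.

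vip had 37.4, 44.7 and 27.4 CPM in opn4 dko posterior brains, against 25.7, 22.9 and 21.1 CPM in wild-type (0.65 ± 0.26, FDR 0.395). npb had 81.9, 59.5 and 96.2 CPM in opn4 dko, against 52.0, 52.5 and 66.4 CPM in wild-type (0.48 ± 0.20, FDR 0.411). Of the low genes, tac3a had 7.02, 13.7 and 6.05 CPM in opn4 dko and 2.06, 5.20 and 4.50 CPM in wild-type (1.17 ± 0.59, FDR 0.539). nts followed with 6.30, 8.88 and 12.5 CPM in opn4 dko and 6.18, 4.85 and 2.53 CPM in wild-type (1.02 ± 0.55, FDR 0.571). None of these passed the threshold. The hypothalamic genes with the sharpest posterior location had fold changes smaller than their errors (pmchl -0.06 ± 0.16, hcrt -0.39 ± 0.75 and agrp -0.47 ± 0.60), while npvf had 0.89 ± 0.46 (FDR 0.560).

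**Figure D5:**
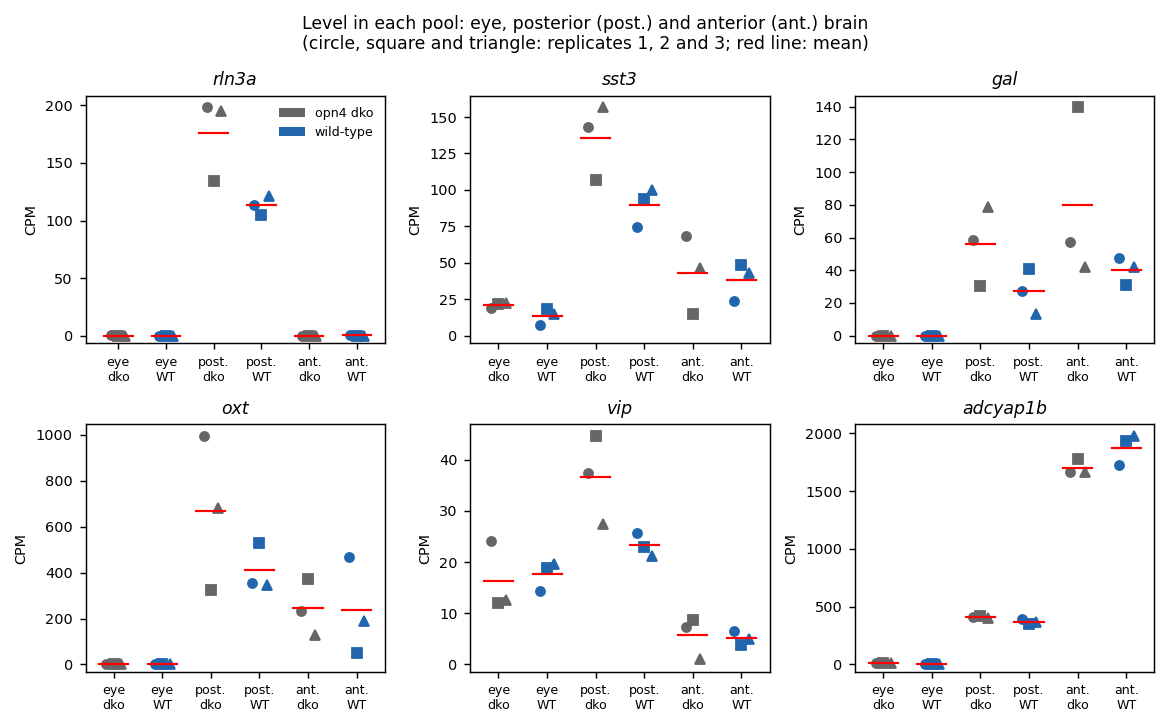
CPM in every pool for 6 genes (vertical axes start at 0), by tissue and genotype, with opn4 dko in grey, wild-type in blue and the mean of 3 pools as a red line. In the posterior brain the opn4 dko pools of rln3a (135 to 199 CPM) lie above the wild-type pools (105 to 121 CPM), those of oxt and gal overlap with them, and adcyap1b changes with the tissue far more than with the genotype.

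In the anterior brain 11 of 21 tested genes (52.4%) had a positive log2 fold change, against 49.5% of all genes, with a median of 0.05, against -0.00. Over the 18 genes that reached the filter's level in both genotypes the median was -0.08. gal had the smallest p. Its level was 57.2, 139.7 and 41.8 CPM in opn4 dko, against 47.6, 30.9 and 42.0 CPM in wild-type anterior brains, and the pools overlapped. The log2 fold change was 0.98 ± 0.31 (FDR 0.203), and it rested on opn4 dko replicate 2: without that pool it was 0.31 (FDR 0.918). Without opn4 dko replicate 3 it was 1.29 (FDR 0.0277), and with every gene that had a count kept the FDR was 6.36e-05. The same pool was the highest of its group for oxt, avp and the summed hypothalamic list. In wild-type, replicate 2 had the highest sum of this list (182 CPM) but the lowest gal (30.9 CPM) and oxt (49.7 CPM). The part of these in the value of gal was not tested.

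pyya had 71.8, 70.0 and 48.6 CPM in opn4 dko, against 91.9, 68.5 and 85.8 CPM in wild-type anterior brains (-0.37 ± 0.18, FDR 0.571). adcyap1b had 1668, 1777 and 1663 CPM in opn4 dko, against 1723, 1931 and 1979 CPM in wild-type (-0.15 ± 0.09, FDR 0.692). Both were lower on average with overlapping pools. The only gene whose anterior pools did not overlap was crhb, lower in opn4 dko (-0.34 ± 0.22, FDR 0.739), where 6.86% of all genes tested had opn4 dko below wild-type without overlap and 7.71% above. The same 11 pineal genes summed to 473, 399.8 and 234 CPM in the opn4 dko anterior pools, against 10.2, 6.57 and 6.35 CPM in wild-type. The part of this in the values above was not tested.

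In the eye 7 of 13 tested genes (53.8%) had a positive log2 fold change, against 53% of all genes, with a median of 0.09, against 0.03. Over the 9 genes that reached the filter's level in both genotypes the median was -0.11. The genes with the smallest p were adcyap1b, grp and ccka. adcyap1b had 10.4, 11.7 and 13.7 CPM in opn4 dko eyes, against 4.22, 6.85 and 0 CPM in wild-type eyes. grp had 2.41, 11.7 and 6.71 CPM in opn4 dko eyes, against 1.30, 3.77 and 0 CPM in wild-type eyes. ccka had 14.2, 15.7 and 13.1 CPM in opn4 dko eyes, against 5.84, 10.6 and 0 CPM in wild-type eyes. In each of them the 0 was wild-type replicate 3, the library with the fewest genes read. Their log2 fold changes were 1.64 ± 0.97, 1.97 ± 1.22 and 1.35 ± 0.93 (FDR 0.993 each). Without wild-type replicate 3 they were 1.1 (FDR 0.817), 1.45 and 0.80. adcyap1b, ccka and sst3 had every opn4 dko eye pool above every wild-type pool (7.72% of all genes tested), and none had every pool below (5.02%). Of these, adcyap1b and ccka reached the filter's level in opn4 dko eyes alone, so they were tested only through the genotype where they were higher. sst3 reached it in both genotypes.

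Whether the genotype effect differed between tissues was tested with interaction terms in the fit of all 18 libraries. By the edgeR quasi-likelihood test 0 of 33 genes were called for the anterior minus the posterior brain (0.00537% of all genes), 0 for the anterior brain minus the eye (0.344%) and 0 for the posterior brain minus the eye (0%). At an unadjusted p below 0.05 there were 1, 3 and 2, where 3%, 5.91% and 5.86% of all genes were. DESeq2 called 0, 1 and 1, in both cases adcyap1b. Its genotype effect in the anterior brain minus that in the eye was -1.70 ± 0.41 on the log2 scale (FDR 0.103, and 2.31e-04 by DESeq2). In the posterior brain minus the eye it was -1.40 ± 0.42 (FDR 0.559, and 0.0307 by DESeq2). Without wild-type eye replicate 3, the pool with 0 reads of this gene, the anterior difference was -1.25 (FDR 0.0248), and without wild-type eye replicate 2 it was -2.39 (FDR 0.0155).

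Genes that act with these precursors were counted from separate lists. In these lists too, a gene read in a single tissue could pass the filter only through that tissue and had to differ. The genes that reached the filter's level on both sides of a tissue comparison were not counted for these lists. Of 16 tested genes for peptide processing and dense-core granules, 1 was higher and 10 lower in the posterior than in the anterior brain (median -0.52), where 14.2% of all genes tested were higher and 14.5% lower. The exception was chgb, encoding the granule protein chromogranin B, with 99.3, 117 and 135 CPM in posterior brains, against 3.06, 8.91 and 13.4 CPM in anterior brains (3.95 ± 0.22, FDR 3.29e-12). The next in size were qpct, the glutaminyl cyclase that caps peptides (-1.35), and cadpsa, a factor for granule exocytosis (-1.23). Of 60 tested peptide receptors, 3 were higher and 16 lower in the posterior brain (median -0.70). The largest changes were those of avpr2aa, a vasopressin receptor (3.79 ± 0.92), of a receptor for thyrotropin-releasing hormone, TRHR (ENSDARG00000036159; -3.76 ± 0.51), and of mchr2, a receptor for melanin-concentrating hormone (3.19 ± 1.1). Of 20 tested precursors outside the 38, 10 were higher and 5 lower (median 1.85), led by urp2 (0 reads in anterior brains, at least 11.1-fold higher), npffl (-7.27 ± 0.97) and calcb (7.17 ± 0.81), which encode a urotensin-related peptide, an RFamide peptide and a calcitonin-family peptide.

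In the eye 2 of the 16 processing and granule genes were higher and 12 lower than the mean of both brain parts, where 29.7% of all genes tested were higher and 27.5% lower. The largest changes were those of chga (-4.97 ± 0.18), qpct (-3.54 ± 0.18) and scg2b (-3.25 ± 0.11), of which chga and scg2b encode granins that make up the granule core. The 2 higher genes were scg3 (1.43) and chgb (1.39). Among the receptors 6 were higher and 37 lower of 60 tested, led by the same TRHR gene, mc4r, the melanocortin receptor that agrp blocks, and galr1, a galanin receptor, all with 0 reads in the eye. Of the 20 other precursors 3 were higher and 10 lower, led by pnocb and sst1.2, both with 0 eye reads, and sst (-6.91 ± 0.35). By the edgeR quasi-likelihood test no gene of these lists passed FDR 0.05 for the genotype in any tissue. At an unadjusted p below 0.05 there were 2 of 15 processing genes, 2 of 43 receptors and 1 of 16 other precursors in the posterior brain (9.74% of all genes tested). The anterior brain had 4 of 15, 3 of 48 and 2 of 14 (9.03%), and the eye had 1 of 15, 0 of 20 and 0 of 8 (4.28%).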

How the data were processed

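Poly(A) RNA from pools of eye, anterior brain and posterior brain was sequenced by the authors as single reads of 100 bp. The deposited values are raw counts per gene, which the authors made with featureCounts over gene bodies, by strand and with a mapping quality of at least 20, on assembly GRCz10 (Ensembl release 86). The deposited commands name HISAT as the mapper and the study's methods name NextGenMap. The submitters' notes also list edgeR 3.9.

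Groups came from the sample labels, 3 pools in each of 6 groups. Library totals were 2186877 to 6946549 counts. Symbols were matched through RefSeq-based gene names, which covered 82.7% of identifiers. Counts were analysed in R 4.3.3 with edgeR 4.0.16: filterByExpr (minimum count 10, minimum total 15), TMM normalization, and the quasi-likelihood F test with Benjamini-Hochberg adjustment over all genes tested (threshold 0.05, prior count 0.125). Genotypes were compared within each tissue, and tissues and interactions in a fit of all 18 libraries. The standard error is the log2 fold change divided by the square root of F. Each result was recomputed with DESeq2 1.42.0, edgeR's exact test, other scalings and filters, a replicate block, single genotypes and leaving out each library. The sequencing lane as a term, the eye against each brain part alone and the comparison within lane 6 were added after seeing the data, as was the count of genes reaching the filter's level in both groups. The fits were tested on simulated data.

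Genes given with values in each library are, in each tissue, the 3 with the smallest p for the genotype and the 3 highest and 3 lowest in spread over trend, and in each tissue contrast up to 5 called genes in each direction with at least 10 counts in every library of the higher tissue. Values of other genes were chosen after being seen, to complete the account of the 38. The members and lists were chosen with earlier results of these data known. Floors and counting intervals cover counting error only.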

Additional observations from a re-analysis of the deposited data

How the results depend on the processing

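Of the single-gene fold changes chosen by the naming rule, none changed sign under the alternatives fitted to them. Apart from leaving out a library, 186 of these values stayed on their side of the threshold, 6 gained a call and 6 lost one. Without 1 library, 340 stayed and 2 gained a call. Other fold changes were not counted here, and the calls that oxt in the posterior brain and the interactions of adcyap1b gained are given above. For the genotype, every gene with a count kept gave 1 call in the anterior and 4 in the posterior brain, and the exact test and DESeq2 gave 1 each in the posterior brain, against 0. Leaving out 1 library gave 0 to 1 calls in the anterior and 0 to 2 in the posterior brain. The median log2 fold change of the anterior brain (0.05) was -0.078 with every gene with a count and in the fit of all 18 libraries, -0.081 with the replicate block, and -0.13 to 0.034 without 1 library. That of the posterior brain (0.19) was -0.16 with actb1 scaling and 0.13 to 0.38 without 1 library, and that of the eye (0.09) was -0.28 with actb1 scaling, 0.33 with every gene with a count and -0.14 to 0.42 without 1 library. For the interaction of the anterior brain and eye, DESeq2 and every gene with a count gave 1 call, and leaving out 1 library gave 0 to 1; for the posterior brain and eye DESeq2 gave 1. Between the brain parts, 15 genes were called in wild-type libraries alone, and 21 to 25 without 1 library, against 24. For the eye, 16 were called in wild-type libraries alone, and 23 to 26 without 1 library, against 25. The spread ratio in the eye was 1.18 by the SD over the mean of CPM, which was not matched for level. Same-numbered pools of both genotypes in a tissue had r of -0.02 to 0.04. Most but not all wild-type pools correlated best with the same-numbered opn4 dko pool, and in the posterior brain each did. Between tissues of a genotype, same-numbered pools had r of 3.2e-04 to 0.12. In opn4 dko each pool correlated best with the same-numbered pool of the other tissue, as did most but not all wild-type pools. The main fit treated them as independent. The replicate block left the counts of called genes at 0 for the genotype in each tissue, 24 between the brain parts and 25 for the eye. At least 10 reads in all 6 libraries of a tissue were present for 9 genes in the eye, 24 in the posterior and 18 in the anterior brain, and the parts of depth and level in this were not separated. The causes of these differences were not tested.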
